A study of Mus musculus with 6 samples.

Results

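The 36 genes described here make and regulate cholesterol and fatty acids. They were listed by pathway membership, with earlier results of these data known, and 35 of them were measured, out of 19935 genes on the array. Each was read from the probe set with the highest mean among those annotated with exactly 1 gene symbol, and Acat2, which had no such probe set, was not analysed here. The 35 comprise 5 regulators of sterol-sensing transcription, 6 enzymes of the mevalonate pathway, 11 enzymes from squalene to cholesterol, 2 sterol transport genes and 11 enzymes of fatty acid synthesis, elongation and desaturation.

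Animal cells build cholesterol from acetyl-CoA through mevalonate and squalene, and build fatty acids from the same precursor by the action of acetyl-CoA carboxylase and fatty acid synthase. Both arms are controlled by the SREBP transcription factors, encoded by Srebf1 and Srebf2. The escort protein Scap carries SREBP out of the endoplasmic reticulum when sterols are scarce, and the Insig proteins hold it there when sterols are plentiful. Liver X receptors, which sense oxysterols, add a second level of control over Srebf1, the desaturase gene Scd1 and the sterol exporter gene Abca1.

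The arrays came from 2 groups of male mice, wild type (WT, 4 arrays) and Y1-deficient (Y1KO, 2 arrays), and the comparison asks what differs in bone-forming cells without Y1, a receptor for neuropeptide Y. Both groups carried a green fluorescent protein gene driven by a 3.6-kb fragment of the rat type I collagen promoter. Marrow stromal cells of femora and tibias were grown for 7 days, and the fluorescent cells, called osteoblastic in the labels, were sorted before RNA extraction. The sort selects by promoter activity, so it can include any cell of the culture in which that fragment is active. The sources used here do not give strain, age or the kind of deletion. They also leave unsaid whether arrays stand for separate mice or cultures, and the p-values therefore reflect only how far these arrays scatter, possibly for technical reasons.

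Values are log2 expression per gene, and differences are Y1KO minus WT on that scale. The array medians lay between 5.3 and 5.37. Across genes (not independent replicates), array pairs correlated at 0.9911 to 0.9958 for WT and 0.9961 for Y1KO, and at 0.9762 to 0.9875 for pairs of unlike genotype. The 7 measured osteoblast markers all exceeded the WT median over all genes, Col1a1 and Col1a2 included. The threshold for a call was 0.05 on limma's p-value after Benjamini-Hochberg adjustment over all 19935 genes, and rose or fell is written only of called genes.

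Part of the lipid synthesis genes rose in Y1KO and none fell. Of the 35, 7 rose: the regulator Insig1, the sterol enzyme gene Cyp51, the exporter gene Abca1, and 4 fatty acid enzyme genes, Fasn, Scd1, Scd2 and Fads2. The 7 make up 20% of the measured genes, beside 6.1% of all genes called higher and 6.64% called lower (12.7% in either direction). All 35 lay above the WT median of all genes, and among genes above the 60th percentile of mean level 11.4% were called higher. No gene of the 35 was called lower by limma, and 0 were lower at an unadjusted p under 0.05, whereas 11 were higher at that level. Over all 19935 genes 2342 were higher and 2495 lower at that level. These are bulk samples, in which a change in the share of a cell type and a change in RNA per cell cannot be told apart.

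The differences were small. Among the 7 they ran from 0.37 to 0.81 with a median of 0.54, beside a median absolute difference of 0.63 over all called genes. Over the 35 the median difference was 0.12 and the mean 0.17, beside a median of 0.01 over all genes. The difference was positive for 25 and negative for 10 of them (71.4% positive, beside 51.6% of all genes). Both Y1KO arrays lay above every WT array for 13 genes and below every WT array for 1, together 40% of the 35. Over all genes 17.5% lay above, 17.3% below and 34.8% in either direction. The calls rested on both Y1KO arrays: 1 of the 35 genes (Insig1) was called without Y1KO replicate 1 and 0 without Y1KO replicate 2, when 1.87% and 0.762% of all genes were called higher. Without moderation of the variance 1 of the 35 (Fads2) was called, and without WT replicate 1 the count was 4.

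**Figure D1:**
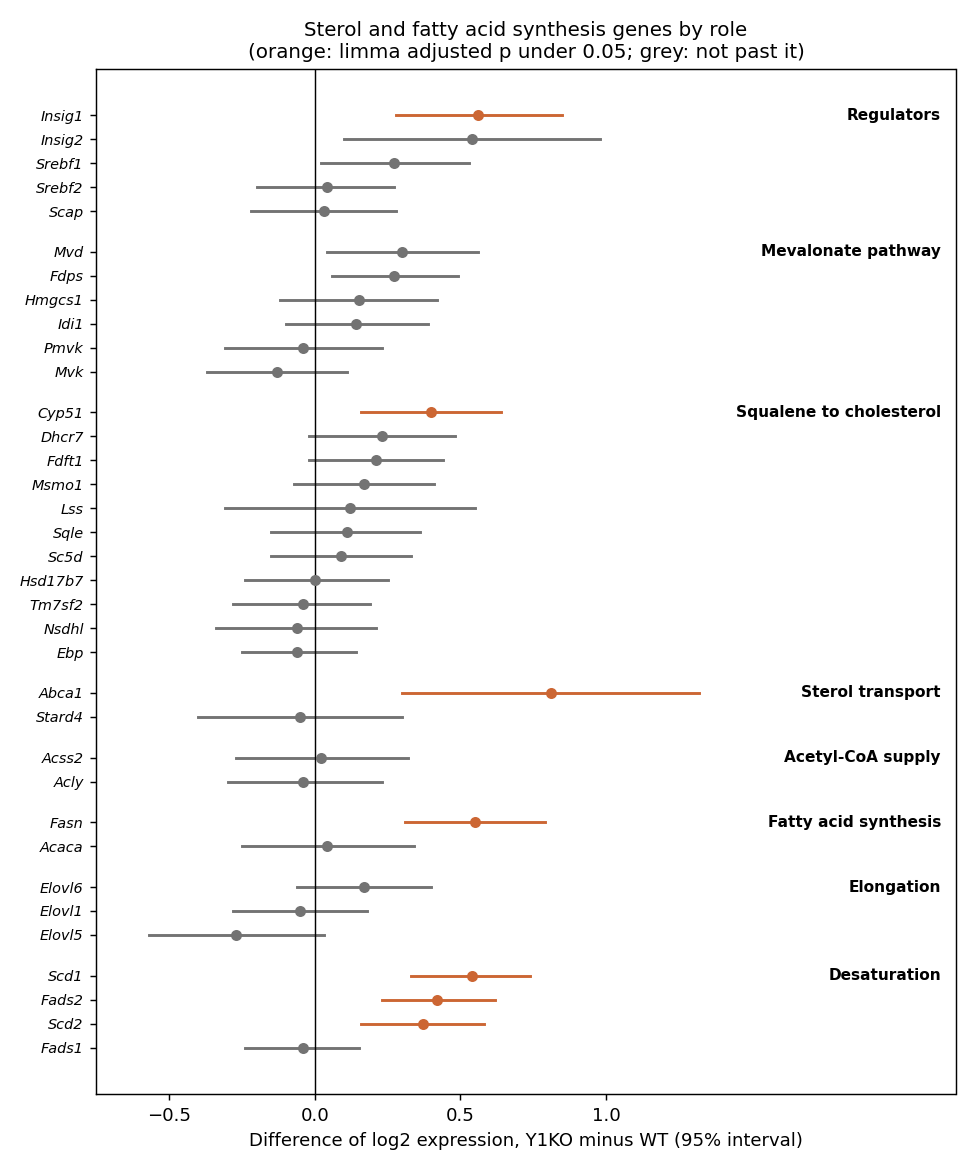
Difference of log2 expression, Y1KO minus WT, on the horizontal axis for each of the 35 measured genes, in rows grouped by role. Points are limma estimates, lines are 95% intervals, and orange marks the 7 genes past the adjusted threshold, which run from 0.37 for Scd2 to 0.81 for Abca1.

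Promoter sequences of several of these genes are shown because members of the pathway are known to share control by SREBP, which acts together with the factors NF-Y, at CCAAT boxes, and Sp1, at GC boxes. RefSeq windows (GRCm38.p6) of 300 bases, 250 before and 50 from the annotated start on, were found for 28 of the 35 genes, in 37 windows. No window was in the table for Fdps, Fdft1, Sqle, Stard4, Scd1, Scd2 and Fads1. The 250 bases before the start are printed below in gene orientation for 3 genes that rose and, beside them, for Hmgcs1, which was not past the test and has the most CCAAT matches among these 4. Capitals mark every match to the 5 motifs searched. The windows lie at chr5:28071162-28071411 (plus strand) for Insig1, chr5:4104698-4104947 (minus strand) for Cyp51, chr11:120824548-120824797 (minus strand) for Fasn and chr13:119690101-119690350 (plus strand) for Hmgcs1.
Insig1: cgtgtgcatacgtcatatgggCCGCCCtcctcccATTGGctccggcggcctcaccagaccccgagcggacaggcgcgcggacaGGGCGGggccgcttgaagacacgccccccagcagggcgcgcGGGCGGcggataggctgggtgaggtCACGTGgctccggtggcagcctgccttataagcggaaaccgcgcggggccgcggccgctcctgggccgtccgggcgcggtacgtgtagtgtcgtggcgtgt
Cyp51: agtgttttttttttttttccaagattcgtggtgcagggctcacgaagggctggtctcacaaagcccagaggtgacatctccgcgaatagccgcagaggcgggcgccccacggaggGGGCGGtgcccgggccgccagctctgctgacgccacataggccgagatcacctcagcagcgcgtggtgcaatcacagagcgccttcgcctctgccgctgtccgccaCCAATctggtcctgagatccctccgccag
Fasn: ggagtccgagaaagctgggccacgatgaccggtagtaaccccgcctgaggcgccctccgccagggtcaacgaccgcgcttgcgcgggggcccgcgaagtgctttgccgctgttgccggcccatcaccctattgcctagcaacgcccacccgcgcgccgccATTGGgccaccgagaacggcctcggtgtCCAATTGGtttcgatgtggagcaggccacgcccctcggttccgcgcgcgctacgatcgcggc
Hmgcs1: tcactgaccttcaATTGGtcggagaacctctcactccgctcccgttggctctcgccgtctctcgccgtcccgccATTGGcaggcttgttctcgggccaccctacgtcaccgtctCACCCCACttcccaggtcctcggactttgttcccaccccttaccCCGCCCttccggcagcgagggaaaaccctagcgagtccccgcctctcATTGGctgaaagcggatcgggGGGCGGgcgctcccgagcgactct

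Motifs were matched on both strands over the full 300 bases. The CCAAT box (CCAAT) was present in at least 1 window of 23 of the 28 genes (82.1%), beside 41.7% of the 15612 tested genes that have a window. By windows these shares were 64.9% and 37.4% of all windows in the table. The GC box (GGGCGG) was also found in 23 of the 28 genes, beside 52.9% of tested genes (75.7% of the members' windows and 35.7% of all). The E-box (CACGTG) was found in 7 genes, or 25%, beside 9.5% of tested genes (21.6% and 7.15% of windows). The sterol element core (CACCNCAC, where N is any base) was found in 2 genes, Hmgcs1 and Hsd17b7, beside 7.53% of tested genes (5.41% and 6.32% of windows). The classical sterol regulatory element, a longer motif that contains a form of this core, was found in 0 of the 28, beside 0.0641% of tested genes (0 and 0.0913% of windows).

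Matches were found both in genes that rose and in genes that were not called. Of the 5 genes that rose and have a window, Insig1, Cyp51 and Fasn held a CCAAT box, 4 held a GC box (Insig1, Cyp51, Abca1 and Fads2) and 2 an E-box (Insig1 and Abca1). In the Fasn window the CCAAT matches begin at positions -90, -62 and -59, where -1 is the base before the start, and the last pair overlap as CCAATTGG. In the Cyp51 window the only CCAAT match begins at -29. Mvk, which was not called, held 5 CCAAT matches and Hmgcs1 4, of which 3 lie before the start. A match is a description of these letters and no measure of binding.

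Insig1 was the regulator that rose. It encodes the endoplasmic reticulum protein that retains the Scap and SREBP complex, and is itself a known SREBP target gene. Insig1 read 10.45, 10.55, 10.58 and 10.73 in WT and 10.96 and 11.32 in Y1KO. The groups did not overlap, and Y1KO replicate 2 stood above replicate 1. The mean went from 10.58 ± 0.12 (SD, n = 4) to 11.14 ± 0.26 (SD, n = 2), a difference of 0.56 (SE 0.13, 95% interval 0.28 to 0.85, limma adjusted p = 0.0202), or 1.48-fold. The call was lost without Y1KO replicate 2, when the difference was 0.38 (adjusted p = 0.22).

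Insig2, the second gene of this family, had a difference of similar size that did not pass the test. It read 9.18, 8.63, 9.34 and 9.21 in WT and 9.45 and 9.8 in Y1KO. The Y1KO arrays lay above every WT array, but WT replicate 2 was well below the other WT arrays, and Insig2 was 0.54 higher (SE 0.19, 95% interval 0.1 to 0.98, limma adjusted p = 0.12). Srebf1, which encodes the SREBP that acts mainly on fatty acid genes, was 0.27 higher (95% interval 0.02 to 0.53, adjusted p = 0.165), with both Y1KO arrays, at 8.61 and 8.59, above the highest WT array at 8.43. Srebf2, whose product acts mainly on sterol genes, and Scap differed by 0.04 (95% interval -0.2 to 0.27) and 0.03 (-0.22 to 0.28), and their groups overlapped. The sign of Srebf2 turned without WT replicate 3 or Y1KO replicate 2 and that of Scap without WT replicate 3 or Y1KO replicate 1.

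In the fatty acid arm the genes that rose lay at chain assembly and desaturation. Of 11 measured enzyme genes 4 rose, or 36.4%. Beside this stand 6.1% of all genes and 11.4% of genes above the 60th percentile of mean level. Fasn, the synthase that assembles the saturated chain, read 9.61, 9.82, 9.5 and 9.73 on the WT arrays and 10.21 on each Y1KO array. The Y1KO arrays were alike and clear of the WT range, at a difference of 0.55 (SE 0.11, 95% interval 0.31 to 0.79, limma adjusted p = 0.0114), or 1.46-fold. Acaca, the carboxylase that supplies malonyl-CoA to that reaction, differed by 0.04 (95% interval -0.25 to 0.34), with overlapping groups. The suppliers of cytosolic acetyl-CoA, Acly from citrate and Acss2 from acetate, differed by -0.04 (95% interval -0.3 to 0.23) and 0.02 (-0.27 to 0.32). Signs turned without 1 array: WT replicate 1 or Y1KO replicate 1 for Acaca, WT replicate 2 for Acly and WT replicate 3 for Acss2.

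Of the 4 desaturase genes 3 rose (75%, beside the same 6.1% and 11.4%). Scd1 encodes a stearoyl-CoA desaturase, which makes monounsaturated fatty acids. It read 11.01, 11.02, 11.1 and 11.18 in WT and 11.64 and 11.59 in Y1KO, a gap between the groups wider than the whole WT range. Scd1 rose by 0.54 (SE 0.09, 95% interval 0.33 to 0.74), or 1.45-fold, with the smallest limma adjusted p of the 35 genes, 0.00622. Scd2, a second gene for the same reaction, read 12.2, 12.15, 12.01 and 12.23 in WT and 12.51 and 12.52 in Y1KO. Its groups were also apart, at a difference of 0.37 (SE 0.09, limma adjusted p = 0.0343), and this call was lost under 7 of the 16 alternatives, among them quantile normalization and WT replicate 1 or 2 left out (differences 0.32 to 0.4 throughout).

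Fads2 and Fads1 encode desaturases that act in turn on polyunsaturated fatty acids. Fads2 read 10.53, 10.64, 10.57 and 10.61 in WT and 10.99 and 11.03 in Y1KO. Its arrays were tight within each genotype and clearly apart between them, at a difference of 0.42 (SE 0.08, 95% interval 0.23 to 0.62, limma adjusted p = 0.0123). Fads1 read 10.85, 10.94, 10.8 and 10.85 in WT and 10.8 and 10.84 in Y1KO, so its groups overlapped. Its difference was -0.04 (95% interval -0.24 to 0.15), an interval that lies below the whole Fads2 interval. The difference between the 2 genes was not tested, since the pair was chosen after its values were seen.

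The elongases, which lengthen the chains, were not called. Elovl6, which acts on the products of Fasn, was 0.17 higher (95% interval -0.06 to 0.4) with overlapping groups. Elovl1 differed by -0.05 (95% interval -0.28 to 0.18). Elovl5, an elongase of polyunsaturated chains, was the only gene of the 35 with both Y1KO arrays, at 9.18 and 9.14, below every WT array. The lowest WT array read 9.19, close to these, and the difference of -0.27 (95% interval -0.57 to 0.03) was not past the test (limma adjusted p = 0.263). Without either Y1KO array Fasn, Scd1, Scd2 and Fads2 kept their direction, at 0.36 to 0.56, but not the call.

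**Figure D2:**
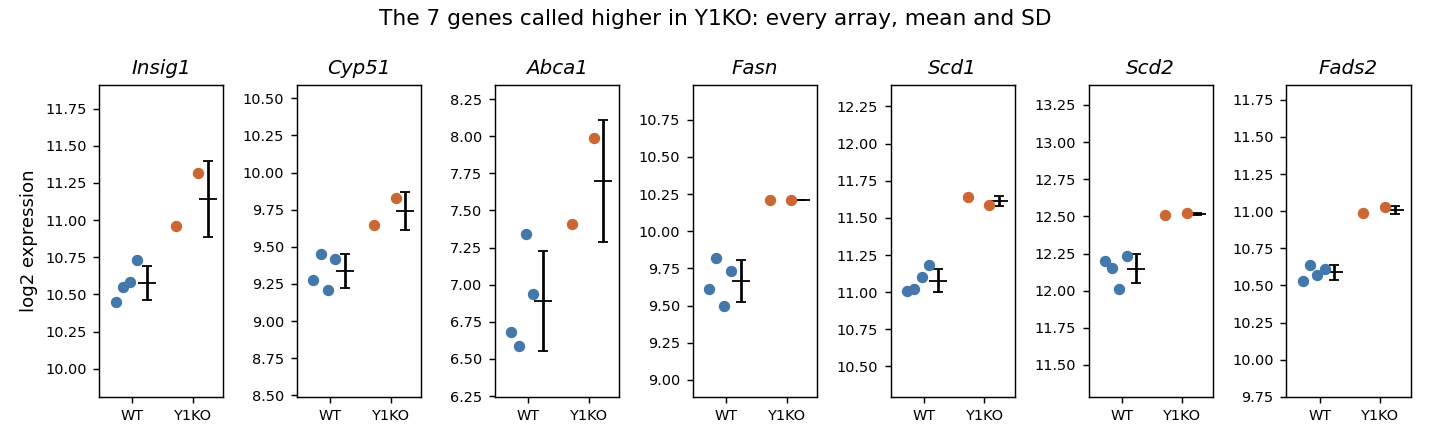
Log2 expression (vertical axis, each panel spanning the same width) of the 7 genes that rose, with 1 point per array (blue, 4 WT; orange, 2 Y1KO) and black bars for mean and SD. In every panel both Y1KO points lie above all WT points, and for Abca1 the lower one, 7.41, is close to the highest WT point, 7.34.

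Along the sterol arm 1 of 17 measured enzyme genes rose, or 5.88%. That share stood beside 6.1% of all genes and 11.4% of genes above the 60th percentile of mean level. The gene was Cyp51, the lanosterol demethylase. It read 9.28, 9.45, 9.21 and 9.42 in WT and 9.65 and 9.83 in Y1KO. The groups did not overlap. Cyp51 was 0.4 higher (SE 0.1, 95% interval 0.16 to 0.64) at a limma adjusted p of 0.0377. This call was lost under 8 of the 16 alternatives, among them each single array left out except WT replicate 2, with a difference of 0.31 to 0.49 throughout.

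No gene of the mevalonate pathway was called by limma. At an unadjusted p under 0.05, where 2342 of all 19935 genes were higher, 2 of the 6 were higher. They were Fdps, the farnesyl diphosphate synthase, at 0.27 (95% interval 0.06 to 0.49, adjusted p = 0.0989) and Mvd, the mevalonate diphosphate decarboxylase, at 0.3 (95% interval 0.04 to 0.56, adjusted p = 0.142). For both genes the Y1KO arrays lay above every WT array: 10.08 and 10.18 against a highest WT value of 9.96 for Fdps, and 8.6 and 8.62 against 8.54 for Mvd. Fdps passed with the filter at the 60th percentile (adjusted p = 0.0456) and Mvd without WT replicate 2 (adjusted p = 0.037). Hmgcs1, the synthase that makes HMG-CoA, and the isomerase gene Idi1 were 0.15 and 0.14 higher, with overlapping groups and intervals from -0.12 to 0.42 and from -0.1 to 0.39. The kinase genes Mvk and Pmvk differed by -0.13 (95% interval -0.37 to 0.11) and -0.04 (-0.31 to 0.23), and the sign of Pmvk turned without WT replicate 2 or Y1KO replicate 1.

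From squalene on, the genes other than Cyp51 differed by -0.06 to 0.23. Fdft1, the squalene synthase, and Dhcr7, the reductase of the final step, were 0.21 and 0.23 higher, with Y1KO arrays above every WT array and limma adjusted p of 0.261 and 0.25. Msmo1, the methylsterol oxidase, the epoxidase Sqle, the cyclase Lss and the desaturase Sc5d were higher by 0.17, 0.11, 0.12 and 0.09, each with overlapping groups. Lss varied most within WT among the sterol enzymes, with a lowest array of 8.18 and a highest of 8.91, and its sign turned without either WT replicate 3 or Y1KO replicate 2. The reductase Tm7sf2 differed by -0.04, the dehydrogenase Nsdhl by -0.06, the isomerase Ebp by -0.06 and Hsd17b7, which reduces the ketone left by demethylation, by less than 0.01 either way. Signs also turned for Tm7sf2 without WT replicate 1, Nsdhl without WT replicate 2 and Hsd17b7 in 6 settings. Among the sterol enzyme genes that were not called, the highest upper bound of an interval was 0.56, for Mvd.

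Abca1, which exports cholesterol from the cell to apolipoprotein acceptors, had the largest difference of the 35 genes. It read 6.68, 6.59, 7.34 and 6.94 in WT and 7.41 and 7.99 in Y1KO. The groups barely separated, since WT replicate 3 came close to Y1KO replicate 1. Abca1 was higher by 0.81 (SE 0.23, 95% interval 0.3 to 1.32), or 1.75-fold, at a limma adjusted p of 0.0485. The call was lost under 8 of the 16 alternatives, among them each single array left out except WT replicate 3, and the difference ranged from 0.52 (Y1KO replicate 2 left out) to 1.1 (Y1KO replicate 1 left out). Stard4, a cytosolic sterol carrier, differed by -0.05 (95% interval -0.4 to 0.3), and by 0.25 without Y1KO replicate 1. Its Y1KO arrays disagreed, at 8.25 and 8.85, one below and the other above all WT arrays, which lay between 8.5 and 8.72.

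Within WT many of the genes were high or low on the same arrays. WT replicate 2 was the highest of the 4 WT arrays for 24 of the 35 genes and WT replicate 3 the lowest for 20, whereas over all genes these arrays were highest for 27.7% and lowest for 35.6%. Among the 17 sterol enzymes the counts were 12 and 10. The mean of the sterol enzymes relative to the WT mean was 0.14 in WT replicate 2 and -0.09 in WT replicate 3, beside 0.07 and 0.15 in Y1KO replicates 1 and 2, so this mean overlapped between genotypes. The mean of the 11 fatty acid enzymes was 0.13 and -0.12 in the same WT arrays and 0.17 and 0.14 in the Y1KO arrays, a narrow separation. WT replicate 2 was also the lowest WT array for the late osteoblast gene Dmp1, at 8.85 beside 10.07 to 11.19 in the other WT arrays, and the osteoblast list mean was -0.6 there. The part of these array differences in the results was not tested.

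**Figure D3:**
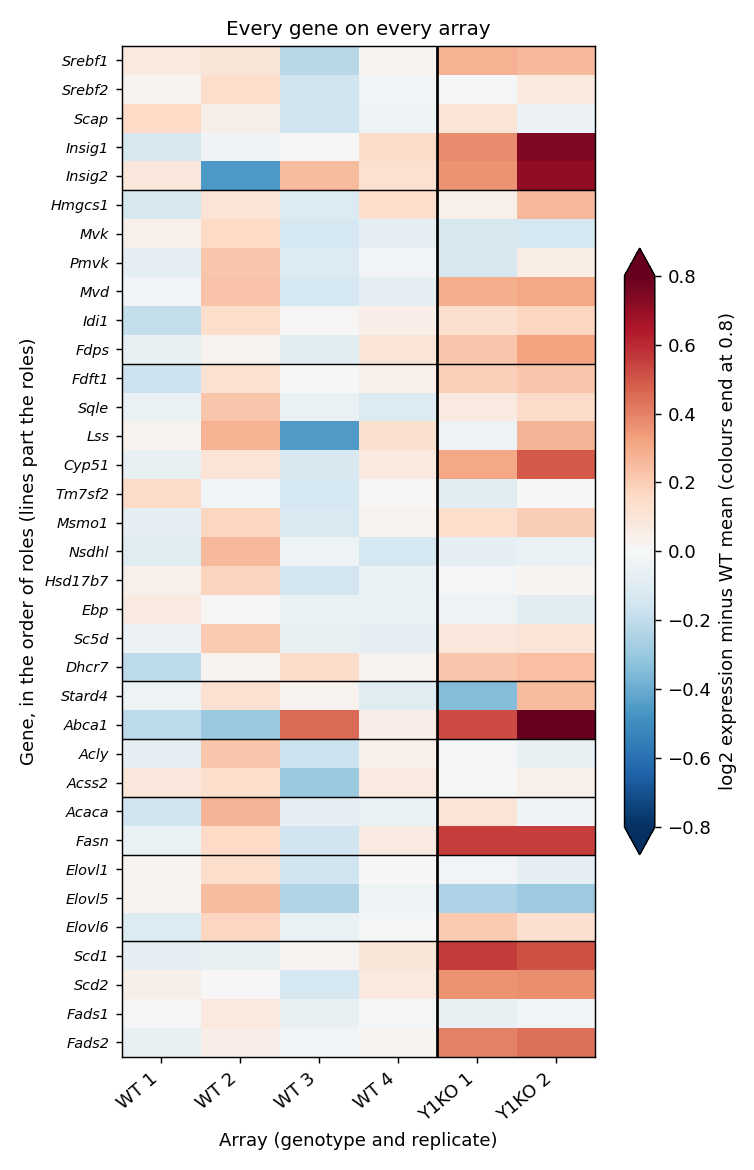
Log2 expression minus the WT mean (colour, ends of the scale at 0.8) for the 35 genes in rows, by role, on the 4 WT and 2 Y1KO arrays in columns. WT replicate 2 is red in most rows and WT replicate 3 blue, and the rows red in both Y1KO columns include Insig1, Fasn, Scd1, Scd2 and Fads2.

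Other genes of the pathway, taken from lists by function, moved in both directions. Of 63 measured, 11 rose (17.5%) and 3 fell, beside 6.1% and 6.64% of all genes (11.4% higher among genes above the 60th percentile). Of the 63, 50 exceeded the WT median over all genes. Of 8 further genes of sterol synthesis 1 rose: Tmem97, a sterol-responsive membrane protein that binds the cholesterol carrier of lysosomes, by 0.53 (SE 0.08, limma adjusted p = 0.00462). It read 10.3, 10.19, 10.22 and 10.22 in WT and 10.78 and 10.75 in Y1KO, well apart, and was not called without either Y1KO array. Of 24 further genes of fatty acid synthesis 1 rose: Me1, the malic enzyme that makes NADPH for chain synthesis, from 10.55 ± 0.12 (SD, n = 4) to 11.2 ± 0.02 (SD, n = 2), a difference of 0.65 (adjusted p = 0.00434), not called without Y1KO replicate 2. By limma 0 of these 24 fell, and 1 was lower at an unadjusted p under 0.05.

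Of 13 genes that control SREBP release and sterol-dependent degradation 5 rose and 1 fell, together 46.2%, beside 12.7% of all genes. All 13 exceeded the WT median over all genes. The 5 make up 38.5%, beside 11.4% called higher among genes above the 60th percentile of mean level. Usp20, a deubiquitinase, rose by 0.88, Sec24d, a coat subunit of vesicles leaving the endoplasmic reticulum, by 0.68, and Rnf145, a sterol-responsive ubiquitin ligase, by 0.66. Erlin1, which restrains SREBP in the endoplasmic reticulum membrane, fell by 0.78, with WT arrays between 7.37 and 7.75 and Y1KO arrays at 6.88 and 6.6. The others that rose were Ubxn8, by 0.34, and Sec24a, by 0.32, both named with their values known. The limma adjusted p ran from 0.00129 to 0.00601 for Usp20, Sec24d, Rnf145 and Erlin1, and was 0.0372 for Ubxn8 and 0.0448 for Sec24a. Without WT replicate 1, WT replicate 2, WT replicate 4 or Y1KO replicate 1 the genes that rose numbered 3, and without Y1KO replicate 2 they numbered 2 and 0 fell.

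Of 18 genes of sterol uptake, sensing and transport 4 rose and 2 fell, together 33.3%, beside the same 12.7%. The 4 make up 22.2%, beside the same 11.4%, and 15 of the 18 exceeded the WT median over all genes. Gramd1b and Gramd1a, carriers that move cholesterol from the plasma membrane to the endoplasmic reticulum, rose by 0.87 (SE 0.09, limma adjusted p = 0.000863) and 0.36, and the lipid exchanger Osbpl8 by 0.42. Nr1h3, the liver X receptor alpha gene, fell by 0.58 (adjusted p = 0.00731), while Abca1, a known target of that receptor, rose. The Abca1 call was lost under 8 of the 16 alternatives. Nr1h2, the other liver X receptor gene, was listed but not measured, and a link between Nr1h3 and Abca1 was not tested. Nr1h3 read between 6.59 and 6.76 in WT and 6.22 and 5.98 in Y1KO, so the groups did not overlap. Vldlr, a lipoprotein receptor named after its values were seen, rose by 1.48 (SE 0.38, adjusted p = 0.0362), with WT arrays at 9.58, 8.08, 9.5 and 9.54 and Y1KO arrays at 10.58 and 10.73. Vldlr was not called without WT replicate 3, WT replicate 4 or either Y1KO array. Ch25h, the other gene that fell (by 0.94), encodes an oxysterol-producing hydroxylase and is also named after its values were seen. Its level was low, below the WT median over all genes, and its WT arrays scattered from 4.55 to 5.63. The Y1KO arrays read 4.23 and 3.99 (SE of the difference 0.25, limma adjusted p = 0.0391). Without either Y1KO array 1 of the 18 rose. The genes that fell numbered 1 without WT replicate 3, WT replicate 4 or Y1KO replicate 1, and 0 without Y1KO replicate 2.

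Markers of other cells moved in the same arrays, and their part in the lipid gene results was not tested. Of 15 macrophage markers 10 rose (66.7%, beside 6.1% of all genes) and 0 fell by limma (0 lower at an unadjusted p under 0.05). Their list mean was 5.14 to 5.32 in WT and 5.62 and 6.05 in Y1KO. Adgre1 and Fcgr3 rose by 0.81 and 1.03. Of these 15 genes 3 exceeded the WT median over all genes, and Ptprc, Itgam and Cd14 were not called. Y1KO replicate 2 read higher than replicate 1 for 13 of the 15. Most of the measured lipid genes, called or not, were in the same order. Among them were Insig1, Insig2, Cyp51, Abca1, Scd2, Fads2, Stard4 and Lss. Scd1, Acaca, Scap and Elovl6 were among those in the opposite order. Fasn, Scd1, Scd2 and Fads2 differed by 0.05 or less between these arrays. The share of all genes in that order is not given here, and a link to the macrophage markers was not tested. Of 10 adipocyte markers 5 fell (50%, beside 6.64% of all genes) and 0 rose (0 higher at an unadjusted p under 0.05). Lpl, the lipoprotein lipase, fell by 2.71 and Pparg, the adipocyte master regulator, by 1.45, and the others that fell were Cebpa, Fabp4 and Plin4. The adipocyte list mean was 6.07 to 6.36 in WT and 5.26 and 5.32 in Y1KO.

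Of 12 smooth muscle genes 9 fell and 1, the pericyte marker Cspg4, rose, together 83.3%, beside 12.7% of all genes. Their list means were 8.4 to 8.67 in WT and 7.75 and 7.63 in Y1KO, and Myl9 and Mylk fell by 1.6 and 1.32. All 15 measured cell cycle genes fell, beside 6.64% of all genes. The cell cycle list means were 8.73 to 8.82 in WT and 8 and 7.78 in Y1KO, and Mcm4 and Mcm6 each fell by 1.22. Runx2, Bglap, Spp1, Cfd and Ccnb1 were listed as markers but not measured. Of 7 osteoblast markers 0 rose and 0 fell by limma (4 higher and 0 lower at an unadjusted p under 0.05), with Dmp1 and Ibsp 1.66 and 0.47 higher. The osteoblast list mean was nonetheless higher in Y1KO, at 11.96 and 12.08 beside 10.74 to 11.7 in WT. All 7 differences were positive. For 6 of the 7 both Y1KO arrays lay above every WT array, as for 17.5% of all genes. Of 8 endothelial markers 0 rose and 0 fell (0 at an unadjusted p under 0.05 in either direction), and 2 exceeded the median over all genes, with Kdr at 0.12 and Pecam1 at -0.07, whose sign turned without WT replicate 3. The macrophage count was 0 without Y1KO replicate 2 and 4 without WT replicate 4, and the adipocyte count 3 without Y1KO replicate 2. The smooth muscle genes that fell numbered 5 and 4 without Y1KO replicates 1 and 2, when 0 rose. Without WT replicate 2 the smooth muscle genes that rose numbered 2. With array weights, or without WT replicate 2 or 3, 1 osteoblast marker rose. Without moderation of the variance the macrophage genes that rose numbered 0, and the genes that fell numbered 1 (adipocyte), 3 (smooth muscle) and 6 (cell cycle). With the filter at the 60th percentile, which leaves fewer markers tested, 1 macrophage gene rose.

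**Figure D4:**
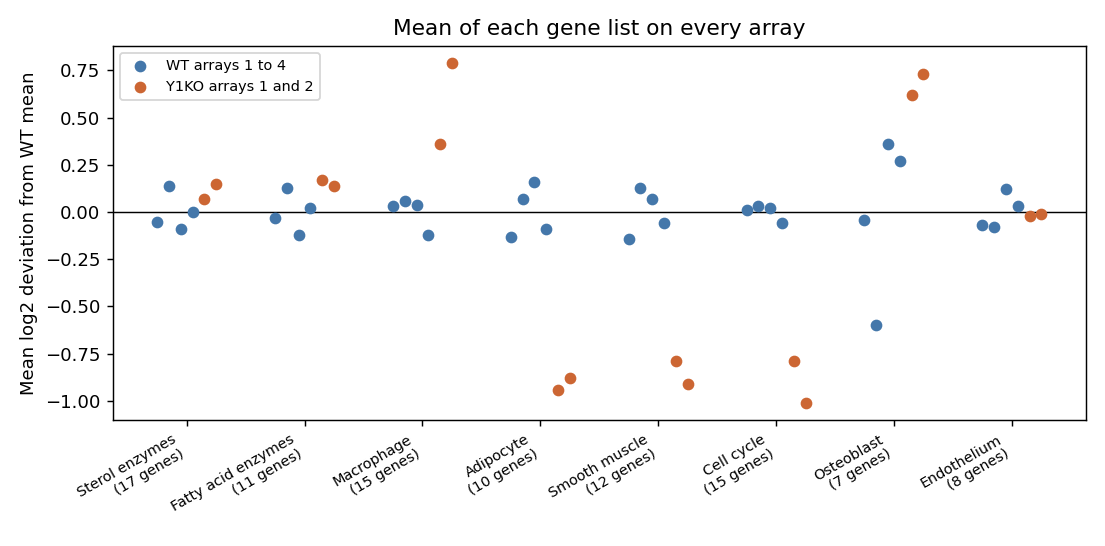
Mean log2 deviation from the WT mean (vertical axis) of each gene list on every array (blue, 4 WT; orange, 2 Y1KO). The lower sterol enzyme mean of Y1KO, 0.07, lies below that of WT replicate 2, 0.14, while the macrophage means, 0.36 and 0.79, lie above them and the adipocyte means, -0.94 and -0.88, below.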

How the data were processed

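The authors deposited log2 expression values for 28815 probe sets on single-channel arrays (4 WT, 2 Y1KO). Per the submitters' processing notes, RMA and limma were used. The sources used here do not give their versions, settings, build or annotation. The values were used as deposited. Precision is limited by the number of arrays, and RMA understates differences near background.

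Of the probe sets, 21780 had exactly 1 gene symbol in the platform annotation, which can be old, 1605 had several and 5430 were not listed. By gene identifier 21689 matched RefSeq (GRCm38.p6). The highest-mean probe set stood for each of 19935 genes. Idi1, Fdft1 and Acaca had 2 probe sets each, which had the same sign. Y1KO was compared with WT by limma 3.58.1 (R 4.3.3, lmFit and eBayes, genotype alone, two-sided, Benjamini-Hochberg), checked on simulated data. The members and lists were chosen with earlier results of these data known. All measured members were named, with every array given for genes called or differing by at least 0.5. Called genes of the other pathway lists (at most 4 each) and 2 genes of each marker list, by smallest p, were also named. Vldlr, Ch25h, Ubxn8, Sec24a and further markers were added after their values were seen. The 16 alternatives are described in the closing section.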

Additional observations from a re-analysis of the deposited data

Results flagged for a closer look

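Of 58 genes tested, 4 had 1 WT array whose gap to its nearest neighbour, as a share of the WT range, exceeded Dixon's 95% critical value. Some genes named above, such as Ch25h, Ubxn8 and Sec24a, were not among the 58. Chance alone would mark about 1 group in 20. Sc5d read 9.83 in WT replicate 2, beside 9.54 to 9.57 in the other WT arrays. Acss2 read 7.32 in WT replicate 3, beside 7.69 to 7.76. Ibsp read 12.34 in WT replicate 2, beside 12.86 to 12.94. Vldlr read 8.08 in WT replicate 2, beside 9.5 to 9.58.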

How the results depend on the processing

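The 16 alternatives were other scalings, filters on low values at the 40th and 60th percentile, other handling of probe sets, other variance settings, array weights, a replicate block and each array left out. Where 1 Y1KO array was left out, the remaining one was assumed to vary like the WT arrays. All 7 genes that rose kept their direction throughout. The lipid genes that rose numbered 0 to 6 with single arrays left out and 1 without moderation of the variance, and no setting gave a gene that fell. Over all genes the higher calls numbered 152 to 1172 and the lower calls 335 to 1290 with single arrays left out, and 140 and 204 without moderation.

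With single arrays left out, the other genes that rose numbered 0 to 1 (sterol synthesis), 2 to 6 (SREBP control), 1 to 4 (uptake and transport) and 0 to 1 (fatty acid synthesis). Those that fell numbered 0 to 1 (SREBP control), 0 to 2 (uptake and transport) and 0 to 1 (fatty acid synthesis). Without moderation 2 rose and 0 fell in SREBP control, 2 rose and 0 fell in uptake and transport, and 0 rose in fatty acid synthesis. In fatty acid synthesis 2 rose with quantile normalization, median centring, trend and robust options, array weights or the filter at the 40th percentile, and 3 with that at the 60th. In uptake and transport 1 fell with either filter or with trend and robust options.

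The replicate numbers 1 and 2 are shared by both genotypes. Same-numbered arrays had correlations of deviations of 0.01 and -0.2. With only 2 Y1KO arrays their deviations mirror each other, so these values cannot settle whether same-numbered arrays were prepared together. The main fit left the numbers out. With the replicate block 4 of the lipid genes rose (Cyp51, Scd2 and Fads2 did not pass), as did 3 osteoblast markers, 3 genes of SREBP control (2 fell) and 2 of uptake and transport (1 fell), and 1 gene of fatty acid synthesis fell. Signs turned only for genes that were not called. With the block these were Srebf2 (-0.05), Scap (-0.08), Lss (-0.04), Hsd17b7 (-0.1), Acss2 (-0.09), Acaca (-0.02) and Pecam1 (0.12). With array weights they were Scap (-0.01), Hsd17b7 (-0.01) and Acss2 (-0.02), and with quantile normalization Hsd17b7 (-0.02). With single arrays left out the values ran from -0.01 to 0.09 for Srebf2, -0.05 to 0.11 for Scap, -0.13 to 0.05 for Pmvk, -0.03 to 0.27 for Lss, -0.09 to 0.01 for Tm7sf2, -0.11 to 0.02 for Nsdhl and -0.05 to 0.06 for Hsd17b7. They ran from -0.35 to 0.25 for Stard4, -0.09 to 0.04 for Acly, -0.08 to 0.07 for Acss2, -0.03 to 0.14 for Acaca and -0.17 to 0.04 for Pecam1. The causes were not tested.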
